A study of Mus musculus with 4 samples.

Results

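The receptors by which lymphocytes read migration cues were examined in splenic CD4+CD25+ T cells of mice with and without Helios, a zinc finger transcription factor of the Ikaros family (gene Ikzf2). Members were chosen by a rule on gene names that used no expression value, but with earlier results of these data known. Shares of members set beside all genes therefore describe this set only and are no test. The rule took every Ccr, Cxcr and Ackr gene, Ccrl2, Cx3cr1, Xcr1, Gpr183, Gpr15 and Selplg. It also took the sphingosine 1-phosphate receptors S1pr1 to S1pr5 and the lysophosphatidic acid receptors Lpar1 to Lpar6. The rule found 37 genes in the mouse annotation, of which 35 were among the 16383 genes of the table. The other 2 were not analysed here. The 35 members comprised 17 chemokine receptors, 4 atypical or scavenging chemokine receptors, 5 receptors for sphingosine 1-phosphate, 6 for lysophosphatidic acid and 3 other migration genes.

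RNA-seq was performed on CD4+CD25+ cells, the surface phenotype by which regulatory T cells (Tregs) are commonly sorted, taken from the spleen at 7 weeks of age. The 2 groups were WT mice and Ikzf2-/- mice (labelled Helios KO), with 2 libraries each. No Cre driver or treatment is named in the labels, so the deletion is read as germline and present in every cell, and the sort also admits any other CD4+CD25+ cell. The labels do not say whether the libraries of a group came from separate mice, and p-values therefore measure only the spread between these libraries, which may be technical.

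Chemokine receptors are G protein-coupled receptors that steer cells along gradients of chemokines, and each receptor responds to its own small set of ligands. CCR7 and CXCR5 place lymphocytes in the T cell zone and the B cell follicle, whereas receptors such as CCR4, CCR6, CCR8, CXCR3 and CCR9 direct activated T cells, including Tregs, to inflamed or barrier tissues. S1PR1 senses sphingosine 1-phosphate in blood and lymph and allows lymphocytes to leave lymphoid organs, and GPR183 follows oxysterols within the spleen and lymph node.

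Ikzf2 transcripts were measured first. The Ikzf2 level, in normalised reads per kb of transcript, was 5282 and 7864 in WT against 4396 and 3104 in Helios KO. Both knockout values lay below both WT values, but transcripts of the locus were still counted, with a Helios KO to WT ratio of 0.571. The exons removed by the allele are not given in the labels, so the summed gene value says little about the allele. Recovered reads per library numbered 40801794 to 50824076. The T cell markers were high in all 4 libraries. The Treg genes Foxp3 (37578 and 33448 in WT, 41264 and 25224 in Helios KO) and Il2ra (39462 and 39620 in WT, 40457 and 26759 in Helios KO) were also high, and lowest in Helios KO replicate 2.

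Helios KO replicate 2 stood apart from the other libraries. Markers of other blood cells were higher in it. All 14 tested markers of macrophages and monocytes and all 6 of neutrophils were at least 2-fold above every other library. So were 9 of 11 of NK and cytotoxic cells and 9 of 12 of B cells. The summed level of the macrophage and monocyte markers was 8648 and 9874 in WT, 9206 in Helios KO replicate 1 and 142248 in Helios KO replicate 2. Axl alone held 5289 and 4612 of it in WT and 7259 in Helios KO replicate 1. By gene, 12 of these 14 markers were below the WT mean in replicate 1, with a median log2 difference of -1.06. For the NK and cytotoxic markers the summed level was 4956 and 6106 in WT, 4500 in Helios KO replicate 1 and 28848 in Helios KO replicate 2. Nkg7 alone held 2237 and 2518 of this sum in WT, 1984 in Helios KO replicate 1 and 9682 in replicate 2. By gene, 8 of these 11 markers were below the WT mean in replicate 1, with a median log2 difference of -0.26. No marker list had a gene at 0 in all 4 libraries, although the neutrophil granule genes Elane and Mpo were at 0 in both WT libraries. Of 12 tested Treg identity genes, 11 were below the WT mean in Helios KO replicate 2, with a median difference of -0.16 on the log2 scale, and 1 in replicate 1, with a median of 0.15. Receptor values are therefore given for each library, and comparisons are given with and without this library. In such bulk samples, fewer cells of a type cannot be told apart from less RNA per cell.

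In WT cells the receptors spanned a wide range, and Selplg alone took 54.9% to 59.8% of the summed receptor level in the 4 libraries. A level here is the value per kb of transcript, averaged over the 2 WT libraries, ± SD. Selplg, which encodes the P-selectin ligand PSGL-1 on which leukocytes roll, came first at 85412 ± 5466 (n = 2). Ccr7, the receptor for CCL19 and CCL21, followed at 15189 ± 3601 (n = 2), and S1pr1 came next at 12535 ± 533 (n = 2). The WT ranges of Ccr7 and S1pr1 overlapped, so their order is not resolved. Below them the WT ranges set Gpr183 apart at 5105 ± 24.5 (n = 2) and S1pr4 at 4078 ± 385 (n = 2).

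A middle tier held receptors known from effector and follicular Tregs. Ccr6, Cxcr3 and Ccr8 formed 1 group with overlapping neighbours, at 3188 ± 222, 2854 ± 702 and 2680 ± 8.23 (SD, n = 2 each). Ccr4, at 2258 ± 43.9 (n = 2), lay below them, and above Cxcr5, Cxcr4 and S1pr2, whose neighbouring ranges overlapped, at 1873 ± 159, 1733 ± 180 and 1719 ± 61.2 (n = 2 each). Cxcr6, Lpar5, Ccr2, Gpr15, Ccrl2, Lpar6 and Ccr9 ran from 834 down to 384. Ccr3 and Ccr10 were near 115 and 114, and the remaining 14 members had WT means from 30.6 downward.

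The place of a gene in this order depends on the transcript length used. The deposited values divide by the median length of a gene's annotated transcripts, and for Selplg that median was 0.554 kb over 6 transcripts, whereas its longest transcript has 2.31 kb. In WT replicate 1 the reads themselves numbered 52561 for Selplg and 41831 for S1pr1. The WT level of Selplg was 6.81 times that of S1pr1 as deposited and 1.63 times per kb of the longest transcript of each gene. Selplg, Ccr7 and S1pr1 kept their order on that scale, Gpr183 moved behind S1pr4, and S1pr2 moved from place 12 to place 18. A comparison of 1 gene between libraries does not depend on this length.

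**Figure D1:**
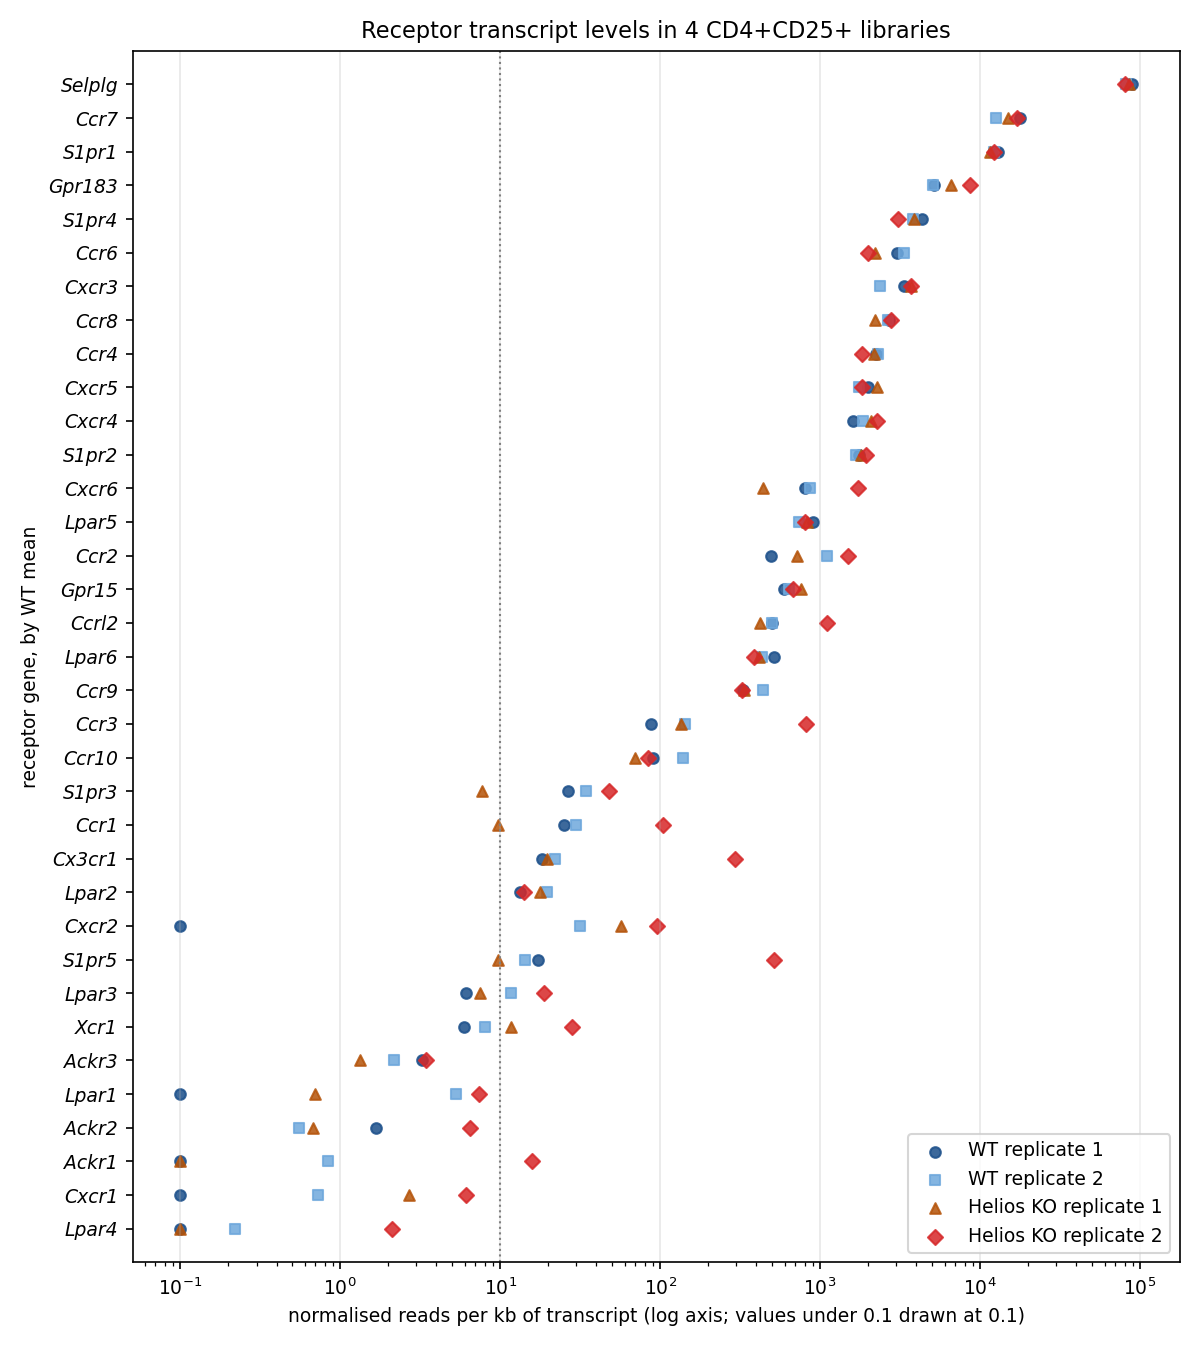
Level of each of the 35 receptor genes in the 4 libraries, in normalised reads per kb (median transcript length) on a log axis, ordered by WT mean; the dotted line marks the value of 10 used in the filter. Selplg, Ccr7 and S1pr1 lead in every library, and the Helios KO replicate 2 diamonds lie to the right for S1pr5, Cx3cr1, Ccr3 and Ccr1.

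No receptor gene passed the test between genotypes. Of the 35 members, 29 reached a value of 10 in 2 or more libraries and were tested, and 0 of these 29 passed a Benjamini-Hochberg adjusted p of 0.05 in limma over all 11571 tested genes, where 0% of genes were called. The smallest adjusted p of a receptor was 0.814, for Ccr6, and the rest were at 1.00. At an unadjusted p under 0.05 there were 3 receptors, Ccr6 lower and Gpr183 and Cxcr4 higher in Helios KO, or 10.3% of the members beside 3.34% of all genes (386 genes). By direction, these were 2 of 29 higher beside 1.28% of all genes (148) and 1 of 29 lower beside 2.06% (238). With limma-voom on recovered reads 0 genes were called, and the same 3 receptors had an unadjusted p under 0.05, among 135 genes higher (1.2%) and 242 lower (2.15%).

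Both Helios KO values lay above both WT values for 7 of the 29 tested receptors (24.1%, beside 12.5% of all tested genes). These were Gpr183, Cxcr3, Cxcr4, S1pr2, Gpr15, Cxcr2 and Xcr1. Xcr1 reached a value of 10 in the knockout libraries alone and Cxcr2 in just 1 WT library, so both needed knockout values to be tested. With the filter at 100, which neither passed, the count was 5. The share of all genes at that filter was not computed, so this count has no background to be set beside. Both knockout values lay below both WT values for 5 receptors (17.2%, beside 15.7% of all tested genes), namely Ccr6, S1pr1, Ccr4, Lpar6 and Ccr10. The median log2 fold change of the 29 was 0.12, and that of all tested genes was -0.00. With no filter on low values the receptor median was 0.22, and with a filter at 100 it was 0.083. Against the WT mean the median was -0.06 in Helios KO replicate 1 and 0.18 in Helios KO replicate 2.

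**Figure D2:**
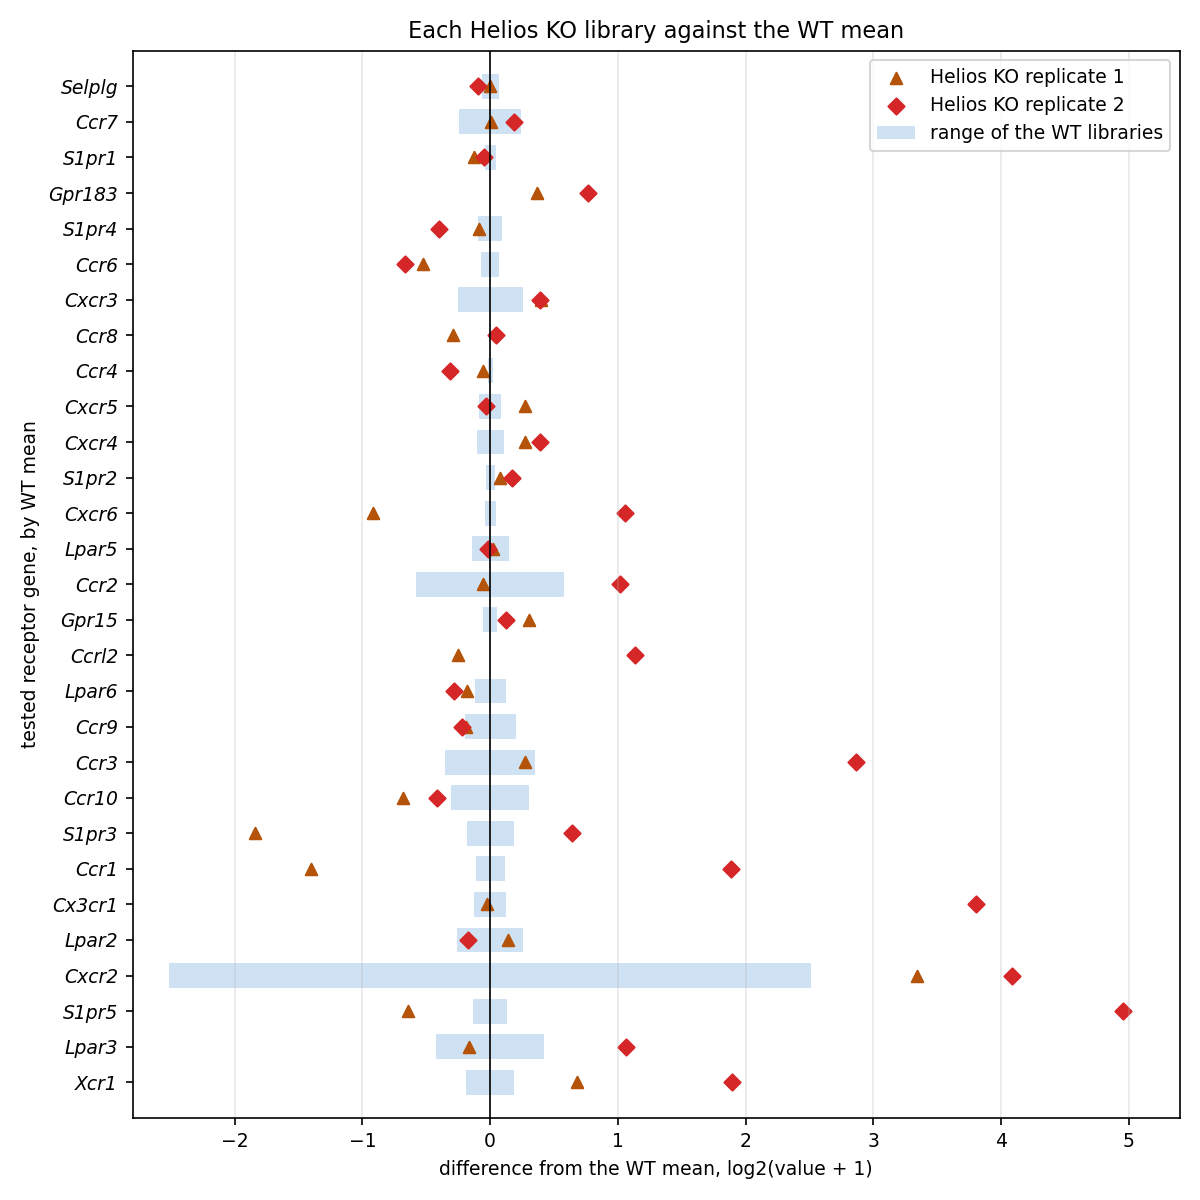
Difference of each Helios KO library from the WT mean for the 29 tested receptor genes, on the log2(value + 1) scale, with the range of the 2 WT libraries as a bar. Ccr6 and Gpr183 lie outside the WT range on the same side in both knockout libraries, whereas Cxcr6, S1pr3, Ccr1 and S1pr5 lie on opposite sides.

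Ccr6, the receptor for CCL20 carried by Tregs and Th17 cells of mucosal and inflamed tissue, was lower in both Helios KO libraries and ranked 33 by p among all tested genes. It lies on chromosome 17 from 8236043 to 8257141, plus strand, mm10. Its level was 3031 and 3345 in WT and 2212 and 2002 in Helios KO. Both knockout libraries were low and the groups did not overlap. The Helios KO to WT ratio was 0.661 and the log2 fold change -0.60 (SE 0.11, 95% interval -0.87 to -0.32, unadjusted p = 0.00234 in limma). With Helios KO replicate 2 left out it was -0.53, and with replicate 1 left out it was -0.67. In the latter fit, where the lone knockout library is assumed to vary like the others, Ccr6 passed with an adjusted p of 0.0330 in limma, as 1 of 58 genes lower (0.501% of all). The part of the lower Treg gene levels of replicate 2 in the Ccr6 value was not tested. The fit lacking Helios KO replicate 2 gave Ccr6 an adjusted p of 0.292 in limma. RefSeq gives Ccr6 a pair of starts, and the 250 bases before each are shown because this gene had the smallest p of the receptors. Capitals mark TGGGAA or its reverse complement TTCCCA, the core word bound by the Ikaros family to which Helios belongs, searched on both strands.
Ccr6 first start, GRCm38.p6 chr17:8235793-8236042, plus strand: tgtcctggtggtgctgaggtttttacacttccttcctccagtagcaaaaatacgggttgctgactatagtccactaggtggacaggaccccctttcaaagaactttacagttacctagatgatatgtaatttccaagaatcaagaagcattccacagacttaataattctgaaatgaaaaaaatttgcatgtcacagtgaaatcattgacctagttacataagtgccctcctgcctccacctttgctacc
Ccr6 second start, GRCm38.p6 chr17:8242276-8242525, plus strand: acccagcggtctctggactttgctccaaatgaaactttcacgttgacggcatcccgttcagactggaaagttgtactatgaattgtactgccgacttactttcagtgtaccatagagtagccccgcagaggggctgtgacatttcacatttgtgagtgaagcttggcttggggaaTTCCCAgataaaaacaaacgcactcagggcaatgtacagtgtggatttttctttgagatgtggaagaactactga
The word occurred once before the second start and not before the first. It was present in 21.6% of all 32851 RefSeq promoter windows of this length and in 9 of 36 windows of 30 receptor genes (25%), so a match is a description of the letters alone.

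Cxcr3, which responds to CXCL9 and CXCL10 and marks Tregs of type 1 inflammation, was higher in Helios KO by a margin no larger than the spread of WT. It was at 3351 and 2357 in WT against 3702 and 3692 in Helios KO. The knockout libraries were nearly equal to each other and both above WT, while the WT libraries differed by 0.51 on the log2 scale. The log2 fold change of 0.40 (SE 0.18, unadjusted p = 0.0780 in limma) was the same whichever knockout library was left out (0.39 and 0.40), but it ran from 0.14 to 0.65 with 1 WT library left out.

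Cxcr4, the receptor for CXCL12 that holds cells in bone marrow and other stroma, was at 1605 and 1860 in WT against 2087 and 2268 in Helios KO. Both knockout libraries lay above both WT libraries. The ratio was 1.26 and the log2 fold change 0.33 (SE 0.12, unadjusted p = 0.0366 in limma), which did not pass over all genes. This log2 fold change was 0.27 with Helios KO replicate 2 left out and 0.39 with replicate 1 left out.

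The receptor of the T cell zone showed no difference detectable over the WT spread. Ccr7 was at 17736 and 12643 in WT against 15031 and 17005 in Helios KO, and the knockout values lay inside the WT range. Its log2 fold change was 0.09 with a 95% interval of -0.38 to 0.57, so a difference of either sign within that interval remains possible. Cxcr5, which answers CXCL13 and leads follicular T cells into B cell follicles, was at 1985 and 1761 in WT against 2264 and 1828 in Helios KO. Its groups overlapped (log2 fold change 0.12, SE 0.14).

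The skin and tissue Treg receptors Ccr4 and Ccr8 were tested without passing. Ccr4, for CCL17 and CCL22, was at 2227 and 2289 in WT against 2168 and 1815 in Helios KO, lower in both but close in replicate 1 (log2 fold change -0.19, SE 0.12). Ccr8, for CCL1, was at 2686 and 2674 in WT against 2194 and 2768 in Helios KO. The groups of Ccr8 overlapped, with the sign set by Helios KO replicate 1 (log2 fold change -0.12, SE 0.14). Ccr9, the receptor for CCL25 of the small intestine, was at 332 and 437 in WT against 334 and 327 in Helios KO (log2 fold change -0.21, SE 0.20). AC165425.1 on the opposite strand covers 18.8% of the exon bases of Ccr9, and reads of overlapping genes cannot be separated in this preparation. Ccr10, which binds CCL27 and CCL28 of skin and mucosa, was at 90.4 and 138 in WT against 69.4 and 83.7 in Helios KO, lower in both (log2 fold change -0.55, SE 0.34).

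**Figure D3:**
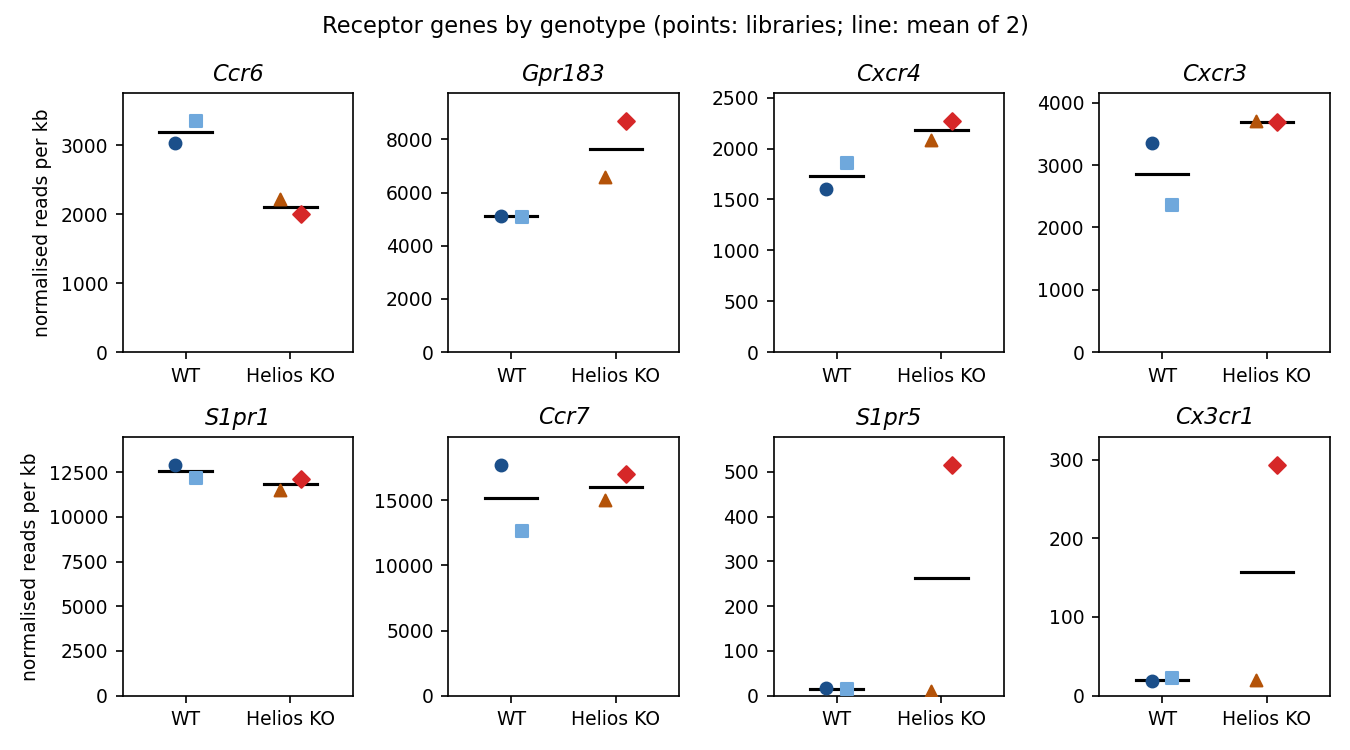
Level of 8 receptor genes by genotype in normalised reads per kb, with linear axes from 0; blue points are WT replicate 1 (circle) and 2 (square), the orange triangle and red diamond are Helios KO replicates 1 and 2, and lines are means of 2. Ccr6, Gpr183, Cxcr4 and Cxcr3 separate by genotype, S1pr1 does so by a small gap, Ccr7 overlaps, and S1pr5 and Cx3cr1 are high in 1 library.

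For Cxcr6 and Ccr2 the libraries of 1 genotype differed more than the genotypes did. Cxcr6, the CXCL16 receptor of tissue-resident and NKT cells, was at 809 and 859 in WT, 442 in Helios KO replicate 1 and 1734 in Helios KO replicate 2. The WT libraries were close while the knockout libraries lay on opposite sides of them, so the log2 fold change of 0.07 had an SE of 0.82. Ccr2, the monocyte egress receptor that memory T cells also carry, was at 495 and 1107 in WT against 713 and 1499 in Helios KO. The WT pair itself differed by more than 2-fold, which 3.84% of all tested genes did, and the log2 fold change was 0.48 (SE 0.64).

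Ccr3, the eotaxin receptor of eosinophils, was at 87.6 and 143 in WT, 136 in Helios KO replicate 1 and 821 in Helios KO replicate 2. Ccr1, a receptor for CCL3 and CCL5 on myeloid cells, was at 25.2 and 29.7 in WT, 9.76 in Helios KO replicate 1 and 104 in Helios KO replicate 2. Cx3cr1, the fractalkine receptor of monocytes and cytotoxic cells, was at 18.3 and 21.9 in WT, 19.6 in Helios KO replicate 1 and 294 in Helios KO replicate 2. All 3 were high in Helios KO replicate 2 alone, and in replicate 1 Ccr1 was below WT. Their log2 fold changes were 1.57 (SE 1.08), 0.24 (SE 1.19) and 1.89 (SE 1.45).

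In the lowest tier, Cxcr2 and Xcr1 separated by genotype on few reads. Cxcr2, the neutrophil receptor for CXCL1 and related chemokines, had 0 and 89 reads in WT and 130 and 255 in Helios KO, or levels of 0, 31.6, 56.9 and 95.9. Both knockout values were above both WT values, yet the WT pair ranged from none to 89 reads, and the log2 fold change of 3.71 (SE 1.92) depends on the pseudocount of 1. A count of 0 allows up to 3 reads, for counting error only, and 6.38% of Cxcr2 50-mers were shared with another gene, chiefly Gm26764. The neutrophil markers summed to 877 and 598 in WT, 902 in Helios KO replicate 1 and 41219 in Helios KO replicate 2. Mmp9 alone was at 731 and 550 in WT, 811 in replicate 1 and 2921 in replicate 2, so outside replicate 2 the sum describes mainly this gene. The part of neutrophils in the Cxcr2 value was not tested. Xcr1, the XCL1 receptor of cross-presenting dendritic cells, was at 5.91 and 7.99 in WT against 11.6 and 28.2 in Helios KO. Xcr1 reached a value of 10 in the knockout libraries alone, so its passing the filter already needed a higher knockout value. Cxcr2 reached 10 in just 1 WT library, so it also needed a knockout value to pass. Cxcr1, a neutrophil receptor, had 0 and 1 reads in WT and 3 and 8 in Helios KO and was not tested.

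Among the atypical receptors, which bind chemokines without the usual G protein signal, Ccrl2 alone was tested. Ccrl2, which presents the attractant chemerin, was at 498 and 499 in WT, 419 in Helios KO replicate 1 and 1098 in Helios KO replicate 2. The knockout libraries lay on either side of WT (log2 fold change 0.44, SE 0.53). The scavengers Ackr1, Ackr2 and Ackr3 had at most 18 reads in any library, and their highest value of 15.9, for Ackr1, was in Helios KO replicate 2. Ackr1 shares 25.7% of its exon bases with Cadm3, so its reads are uncertain.

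Of the sphingosine 1-phosphate receptors, S1pr1 led with nearly the same share in all libraries. This egress receptor took 67.7% and 68.7% of the summed level of the 5 genes in WT and 67.0% and 68.5% in Helios KO. Its level was 12911 and 12158 in WT and 11492 and 12139 in Helios KO. Both knockout libraries were below both WT libraries, but the gap between the nearest values was small. The log2 fold change was -0.09 (SE 0.10) with a 95% interval of -0.32 to 0.15. S1pr1 lies on chromosome 3 from 115710433 to 115715072, minus strand, mm10.

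S1pr4, a receptor largely restricted to lymphoid and blood cells, was at 4350 and 3806 in WT against 3840 and 3082 in Helios KO. Its groups overlapped, its log2 fold change was -0.24 (SE 0.14), and its share of the summed level was 22.8% and 21.5% in WT, 22.4% in Helios KO replicate 1 and 17.4% in Helios KO replicate 2. S1pr2, which restrains movement toward sphingosine 1-phosphate, was at 1762 and 1676 in WT against 1808 and 1931 in Helios KO. Both knockout libraries were slightly higher (log2 fold change 0.12, SE 0.10). S1pr3, best known from vascular cells, was at 26.5 and 34.6 in WT, 7.74 in Helios KO replicate 1 and 47.9 in Helios KO replicate 2, on either side of WT.

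S1pr5, the receptor by which NK cells and patrolling monocytes leave bone marrow and lymph nodes, showed the widest spread of the members with reads in every library. It had 46 and 38 reads in WT, 21 in Helios KO replicate 1 and 1303 in Helios KO replicate 2, or levels of 17.3, 14.2, 9.67 and 516. The highest library was 53.3-fold above the lowest and both were knockouts, so the log2 fold change of 2.15 had an SE of 2.26. Its share of the summed sphingosine 1-phosphate receptor level went from at most 0.0907% in the other libraries to 2.91% in Helios KO replicate 2. The NK receptor gene Ncr1 was at 74.4 and 99.3 in WT, 27.3 in Helios KO replicate 1 and 1730 in Helios KO replicate 2, the same order of knockout libraries. Of the 11 tested NK and cytotoxic markers, 8 were below the WT mean in replicate 1. In replicate 2, 9 were at least 2-fold above every other library. Cd8b1 had the opposite order, at 742 in replicate 1 and 695 in replicate 2. The part of NK cells in the S1pr5 value was not tested. The promoter windows of S1pr5 and Cx3cr1 are shown because both genes were at least 4-fold higher in Helios KO replicate 2 than in any other library. Capitals mark the same word as before.
S1pr5, GRCm38.p6 chr9:21248444-21248693, minus strand: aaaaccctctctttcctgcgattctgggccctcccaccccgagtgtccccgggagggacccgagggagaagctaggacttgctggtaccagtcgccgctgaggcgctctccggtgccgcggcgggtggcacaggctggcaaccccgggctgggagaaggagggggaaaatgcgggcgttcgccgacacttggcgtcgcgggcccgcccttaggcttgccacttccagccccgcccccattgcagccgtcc
Cx3cr1, GRCm38.p6 chr9:120068297-120068546, minus strand: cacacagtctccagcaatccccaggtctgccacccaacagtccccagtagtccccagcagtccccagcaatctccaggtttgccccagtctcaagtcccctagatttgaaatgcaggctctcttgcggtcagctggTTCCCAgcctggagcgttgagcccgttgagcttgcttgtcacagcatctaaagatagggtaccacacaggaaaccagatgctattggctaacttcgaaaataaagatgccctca
The word was found once before Cx3cr1 and not before S1pr5.

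The lysophosphatidic acid receptors were led by Lpar5 and Lpar6, and none of the 4 tested passed. Lpar5, known to dampen antigen receptor signalling in lymphocytes, was at 898 and 734 in WT against 823 and 801 in Helios KO, inside the WT range (log2 fold change 0.00, SE 0.15). Lpar6, a receptor coupled to cell shape, was at 512 and 433 in WT against 415 and 386 in Helios KO, lower in both (log2 fold change -0.23, SE 0.17). Lpar6 lies within the Rb1 gene on the opposite strand and shares 7.56% of its exon bases with it, so part of its reads may belong to Rb1. Lpar2 was at 13.3 and 19.5 in WT against 17.9 and 14.2 in Helios KO. Lpar3 was at 6.10 and 11.8 in WT against 7.48 and 18.9 in Helios KO, and both genes overlapped between groups. Lpar1 and Lpar4 had at most 25 reads in any library and were not tested.

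Gpr183 (EBI2), the oxysterol receptor that positions B cells, dendritic cells and CD4+ T cells at the edges of the T cell zone and follicle, had the larger log2 fold change of the 2 receptors that were higher at an unadjusted p under 0.05. It lies on chromosome 14 from 121952551 to 121965195, minus strand, mm10. Its level was 5122 and 5088 in WT and 6596 and 8688 in Helios KO. The WT libraries were nearly equal and both knockout libraries were above them, by unequal amounts. The ratio was 1.497 and the log2 fold change 0.57 (SE 0.15, 95% interval 0.19 to 0.95, unadjusted p = 0.0112 in limma). With Helios KO replicate 2 left out it was 0.37, and with replicate 1 left out 0.77, with adjusted p-values of 0.595 and 0.0131 in limma. Markers of B cells, which also carry Gpr183, summed to 2254 and 1732 in WT, 1250 in Helios KO replicate 1 and 3879 in replicate 2. Markers of dendritic cells, which carry it too, summed to 5200 and 5615 in WT, 6604 in replicate 1 and 10882 in replicate 2. Bst2 alone held 4541 and 4789 of the dendritic sum in WT, and 5940 and 5118 in Helios KO replicates 1 and 2. Median log2 differences from the WT mean in replicates 1 and 2 were 0.12 and 2.25 for the tested B cell markers. They were -0.008 and 3.04 for the tested dendritic cell markers. The part of these cells in the Gpr183 value was not tested. Its promoter window is shown as that of the highest-ranked of the receptors higher in Helios KO.
Gpr183, GRCm38.p6 chr14:121965194-121965443, minus strand: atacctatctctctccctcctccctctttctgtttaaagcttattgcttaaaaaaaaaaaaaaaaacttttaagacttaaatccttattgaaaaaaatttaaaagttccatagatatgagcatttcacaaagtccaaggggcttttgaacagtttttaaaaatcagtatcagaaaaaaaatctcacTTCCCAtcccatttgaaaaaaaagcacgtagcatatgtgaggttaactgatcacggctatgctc
It held the word once.

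Gpr15, which directs T cells and Tregs to the colon, was at 593 and 642 in WT against 764 and 674 in Helios KO. Both knockout values were above WT, by less in replicate 2 (log2 fold change 0.22, SE 0.14). Cpox on the opposite strand overlaps 12.5% of its exon bases. Selplg was at 89278 and 81547 in WT against 85238 and 80049 in Helios KO, with overlapping groups. The log2 fold change of Selplg was -0.05 with a 95% interval of -0.32 to 0.22.

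Several of the receptors that differed between the knockout libraries are known mainly from other blood cells. Of the 29 tested members, 10 differed by at least 2-fold between the Helios KO libraries (34.5%, beside 11.1% of all tested genes), and 2 did so between the WT libraries. In Helios KO replicate 2, 7 receptors were at least 2-fold above every other library, namely Cxcr6, Ccrl2, Ccr3, Ccr1, Cx3cr1, S1pr5 and Xcr1 (24.1%, beside 6.47% of all tested genes). For Ccr3, Cx3cr1 and S1pr5 the step was at least 4-fold (10.3%, beside 3.83%). In Helios KO replicate 1, S1pr3 and Ccr1 were at least 2-fold below every other library (6.9%, beside 1.96%). The part of other cell types in these values was not tested.

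The receptors that passed depended on which knockout library was left out. Without Helios KO replicate 1, 741 genes passed an adjusted p of 0.05 in limma, among them 8 receptors: Ccr6 lower, and Gpr183, Cxcr6, Ccrl2, Ccr3, Ccr1, Cx3cr1 and S1pr5 higher (24.1% of the members higher, beside 5.9% of all genes). Without Helios KO replicate 2, 32 genes passed, 6 higher (0.0519%) and 26 lower (0.225%), with none of the receptors among them. At an unadjusted p under 0.05 that fit held Gpr183 higher (1.56% of all genes) and Ccr6, Cxcr6, S1pr3 and Ccr1 lower (4.65% of all genes). The fit lacking replicate 1 held 9 receptors higher at that level (31%, beside 10.9% of all genes), and S1pr4 and Ccr6 lower (beside 4.53%). Ccr6 and Gpr183 thus kept their sign and an unadjusted p under 0.05 in both fits, whereas Cxcr6 and Ccr1 changed sign.

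**Figure D4:**
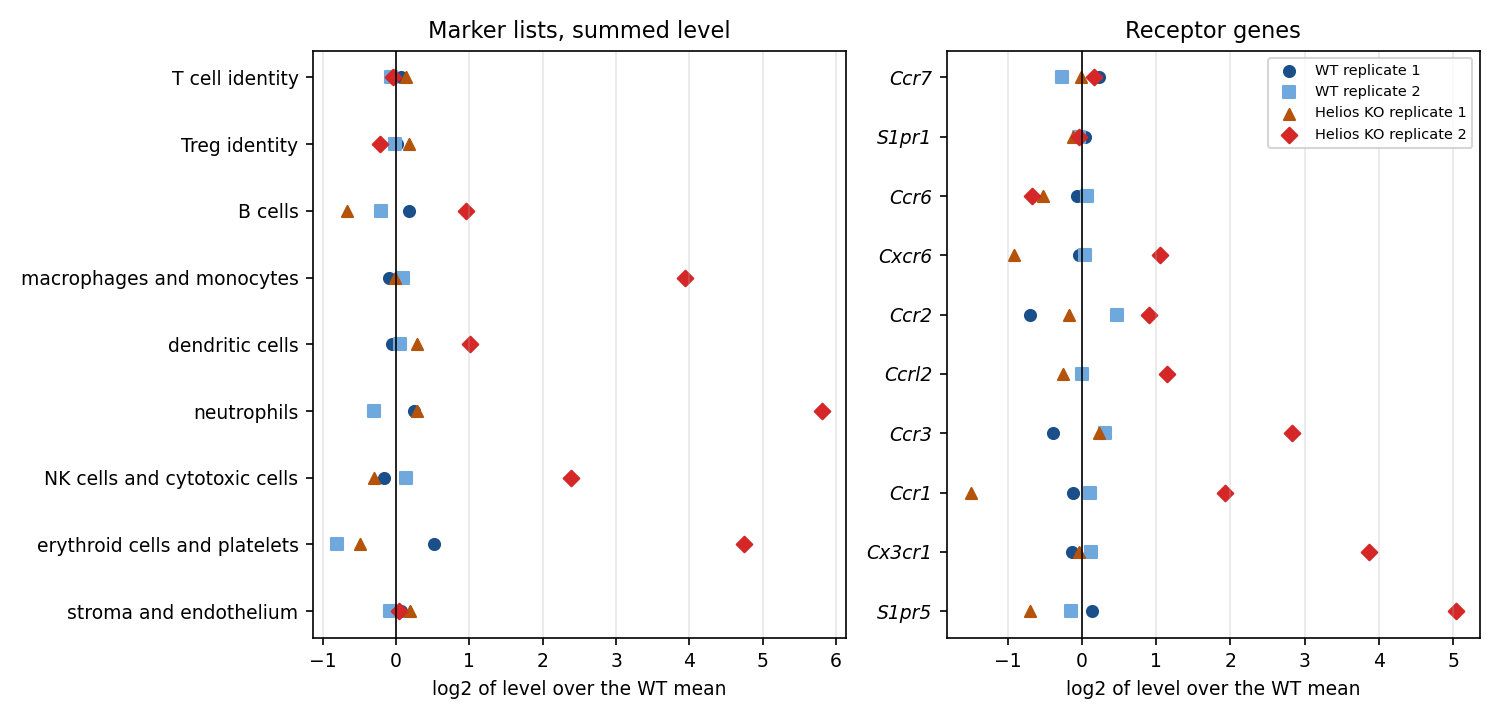
Left, the summed level of each cell type marker list in each library as log2 of the WT mean ratio; right, the same for 10 receptor genes. The Helios KO replicate 2 diamonds lie far right for macrophage, neutrophil, NK and erythroid lists and for S1pr5, Cx3cr1 and Ccr3, and near 0 for T cell identity, S1pr1 and Ccr7.

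Many of the receptor genes are neighbours. Of the 35 members 14 lie on chromosome 9 and 5, Cxcr4, Cxcr2, Ackr3, Ackr1 and Cxcr1, on chromosome 1, which also holds Ikzf2. On chromosome 9 Ccr1, Ccr3 and Ccr2 occupy 123962124 to 124113557, and all 3 were highest in Helios KO replicate 2. Cxcr6, Xcr1 and Ccr9 lie just before them, from 123678439 to 123862029, where Cxcr6 and Xcr1 were highest in Helios KO replicate 2 and Ccr9 was not. Cx3cr1 and Ccr8 lie together from 119901616 to 120094906, and while Cx3cr1 was 14.6 times the WT mean in that library, Ccr8 was within 0.05 of it on the log2 scale.

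The genes that make the cues for these receptors were mostly low. Of 36 chemokine ligand genes 30 were in the table and 15 were tested, and 0 passed the test in limma. At an unadjusted p under 0.05, 1 was higher and 1 lower. Ccl1, the CCR8 ligand, was at 123 and 98.0 in WT against 351 and 217 in Helios KO, with both knockout values above WT (log2 fold change 1.32, SE 0.31, adjusted p = 1.00 in limma). Cx3cl1, the CX3CR1 ligand fractalkine, was at 268 and 369 in WT against 71.7 and 181 in Helios KO, both below WT (log2 fold change -1.46, SE 0.50). Of the 15, 11 were at least 2-fold above every other library in Helios KO replicate 2, beside 6.47% of all tested genes. The median log2 fold change of 1.22 turned in sign between the knockout libraries, with median differences from the WT mean of -0.30 in replicate 1 and 2.95 in replicate 2.

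Genes of sphingosine 1-phosphate, lysophosphatidic acid and oxysterol metabolism gave 10 tested of 16 listed, with 0 passing and 0 at an unadjusted p under 0.05 in limma. Their pair with the smallest p, the sterol hydroxylase gene Cyp27a1 and the sphingosine 1-phosphate exporter gene Mfsd2b of red cells and platelets, were both high in Helios KO replicate 2 alone. Cyp27a1 was at 70.8 and 101 in WT, 67.6 in Helios KO replicate 1 and 1714 in Helios KO replicate 2. Mfsd2b was at 21.8 and 19.7 in WT, 13.0 in Helios KO replicate 1 and 352 in Helios KO replicate 2.

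Signalling and desensitisation genes downstream of the receptors centred near 0, with a median log2 fold change of -0.00 over 35 tested of 38 listed. None passed in limma, and Rgs1 was the single gene at an unadjusted p under 0.05. Rgs1, a GTPase activator that dampens chemokine and S1PR1 signals and retains lymphocytes, was at 7632 and 8062 in WT against 10085 and 13374 in Helios KO. Both knockout libraries were high, replicate 2 more so (log2 fold change 0.57, SE 0.15, unadjusted p = 0.0127). Pik3cg, the kinase activated by G protein subunits, had a log2 fold change of 0.27 (SE 0.13).

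All 19 genes of selectin ligand synthesis and selectins were tested and 0 passed in limma, with 1 lower at an unadjusted p under 0.05. Selp, which encodes P-selectin, the partner of PSGL-1, was at 428 and 443 in WT against 304 and 196 in Helios KO, lower in both (log2 fold change -0.83, SE 0.25). B4galt5, a galactosyltransferase gene, differed by 0.32 (SE 0.15) on the log2 scale. The median of the list was 0.03.

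Regulators of exit and homing separated by genotype more often than they overlapped. Of 26 listed genes 25 were tested, and 0 passed in limma. Of the tested genes, 9 were higher in both knockout libraries (36%, beside 12.5% of all tested genes) and 9 lower in both (36%, beside 15.7%). The list was chosen with earlier results of these data known, so these shares describe the list only and are no test. At an unadjusted p under 0.05, 2 were higher and 3 lower. Itgae, the CD103 integrin chain that retains T cells in epithelium, was at 1973 and 2211 in WT against 1257 and 1290 in Helios KO, with close replicates and no overlap (log2 fold change -0.71, SE 0.11, adjusted p = 0.604 in limma). Rora, a nuclear receptor of tissue Tregs and Th17 cells, was at 3205 and 3691 in WT against 1805 and 2376 in Helios KO (log2 fold change -0.73, SE 0.16). The other 3, named after their values were seen, were Id3, at 13442 and 11361 in WT and 8736 and 7012 in Helios KO, and the regulator pair Klf2 and Cd69. Klf2, which drives S1pr1 transcription, was at 7822 and 7441 in WT against 9047 and 11026 in Helios KO. Cd69, which removes S1PR1 from the cell surface, was at 17394 and 15018 in WT against 20258 and 27626 in Helios KO. S1pr1 RNA itself, as given above, was slightly lower in both knockout libraries.

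**Figure D5:**
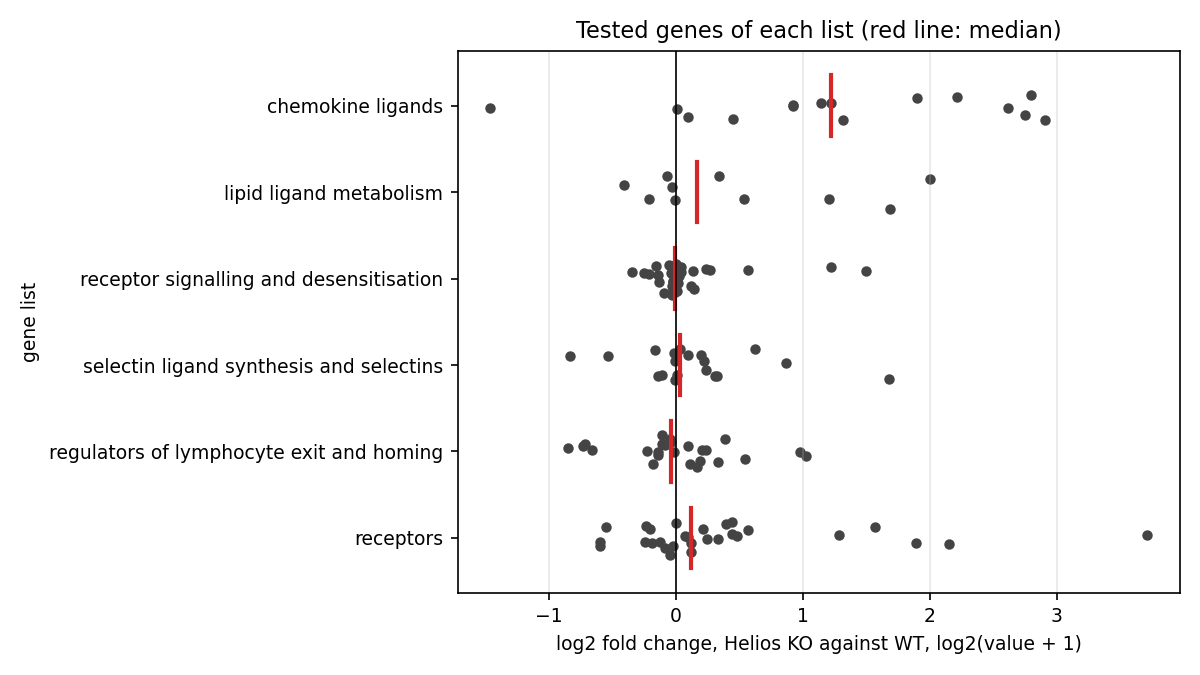
Log2 fold change of every tested gene in the 5 pathway lists and among the 29 tested receptors, Helios KO against WT on the log2(value + 1) scale; points are genes, spread vertically at random, and red lines are medians. Ligands have the highest median, 1.22, which rests on Helios KO replicate 2 (median difference from the WT mean 2.95, against -0.30 in replicate 1), and signalling genes sit near -0.00.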

How the data were processed

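Poly(A) RNA of 4 libraries was analysed. Per the labels' protocols, cDNA came from a SMART-Seq v4 low-input kit with Nextera XT tagmentation, which does not mark strand. The submitters' processing notes name build mm10 and bcl2fastq 2.17.1.14, while neither aligner nor counter is named in the sources used here. Per the file headers, each deposited signal value is a normalised read count over the median transcript length of its gene. Multiplying by that length (GENCODE M21) gave whole reads, within 0.01 read, for 97.2% of 58026 nonzero values. Depth is the sum of recovered reads over the 15927 genes whose values all came out whole, which left out Lpar2 among the members. Replicates differed by more than sampling noise, with a chi-square per degree of freedom of 35.1 between the WT libraries and 118 between the knockout libraries.

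Genes reaching a value of 10 in 2 or more libraries were tested with limma 3.58.1 in R 4.3.3 on log2(value + 1), which understates changes of low genes. Genotype was the only term, with a variance trend and robust estimation, two-sided, at a Benjamini-Hochberg adjusted p of 0.05 over all 11571 genes. The script was tested on simulated data. Alternatives covered median-ratio rescaling, the filter, the pseudocount, the trend, limma-voom on recovered reads, a replicate block and leaving out each library. The level per kb of the longest transcript was added after seeing the data. The members and lists were chosen with earlier results of these data known. Members with a mean of at least 10 were given by library, as were, of each pathway list, the genes that passed or else the 2 with the smallest p. The table stops before the identifiers of 4425 of the 21951 annotated protein-coding genes, which were not analysed here. Coordinates are from GENCODE M21 (GRCm38, the assembly of mm10) and promoter windows from RefSeq on GRCm38.p6, matched by symbol for 30 of 35 members. Shared sequence was counted as 50-mers found in transcripts of another gene.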

Additional observations from a re-analysis of the deposited data

How the results depend on the processing

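With 2 libraries a group, and higher marker levels of other blood cells in 1 knockout library, differences within the intervals given were not detectable. Members under a value of 10 rest on few reads. No gene and no receptor passed under median-ratio rescaling, no filter, a filter at 100, pseudocounts of 0.1 and 10, no variance trend or limma-voom. The filters, the variance trend and a replicate block leave a log2 fold change as it is. An unchanged sign in those settings was fixed in advance, and only the call could change. A single-receptor fold change had the same sign and call in 311 of 338 alternatives, passed the test in 8, all without Helios KO replicate 1, and changed sign in 19, in 14 genes and in 17 cases by leaving a library out. Same-numbered libraries of the genotypes deviated together with a correlation of only 0.11 and formed 2 pairs, so the numbers were not read as pairs. With the replicate number as a replicate block, 0 genes and 0 receptors passed. Leaving out 1 library in turn gave 0 to 741 passing genes (32 without Helios KO replicate 2), 0 to 8 passing receptors, 8 to 17 receptors above WT in every remaining knockout library, 7 to 11 below, and a median receptor log2 fold change from -0.055 to 0.18. The counts above and below WT grow partly because fewer libraries have to separate. The matching shares of all tested genes were not computed, so these counts say nothing particular to the receptors. The log2 fold changes that changed sign ran from -0.11 to 0.019 for Selplg, from -0.15 to 0.34 for Ccr7, from -0.29 to 0.046 for Ccr8, from -0.032 to 0.28 for Cxcr5, from -0.91 to 1.06 for Cxcr6 and from -0.10 to 1.06 for Ccr2. They ran from -0.14 to 0.15 for Lpar5, from -0.25 to 1.14 for Ccrl2, from -1.84 to 0.64 for S1pr3, from -1.40 to 1.89 for Ccr1 and from -0.027 to 3.81 for Cx3cr1. For Lpar2, S1pr5 and Lpar3 the ranges were -0.28 to 0.24, -0.64 to 4.95 and -0.17 to 1.06. Lpar5, at 0.00 in the test reported, was at -0.00055 after median-ratio rescaling and at -0.0028 with limma-voom. The cause was not tested.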
